A study of Danio rerio with 2 samples.

Results

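The apolipoproteins and liver plasma proteins examined here are 10 named genes: APOB, apoa1a, APOA4, APOEB, apoc1l, fabp10a, tfa, SERPINA1, fgb and fgg. A gene of the data set was taken as a member when its deposited symbol or its Ensembl name, without regard to case, equalled one of these names with or without a final a or b, and APOB was fixed as ENSDARG00000042780. By this rule, 8 of the 10 names matched 9 of the 17668 genes in the data set, and the names APOA4 and apoc1l matched none. The RefSeq annotation lists apoa4 as a synonym of apoa4b.1 and apoc1l as a synonym of apoc1, and these 2 genes are given beside the members without being counted among them. RNA was sequenced from GFP(+) cells, labelled as hair cells (HCs), and from GFP(−) cells, labelled as non-hair cells. Both were sorted from dissociated ppv3b:GFP transgenic zebrafish larvae at 5 days post fertilization (dpf), with 1 library per population, so that both populations carry the transgene and no value has a replicate or an error. GFP in this line marks HCs predominantly but not exclusively, and GFP(−) cells stand for the other cells of the whole larva that came through dissociation and sorting. The number of larvae behind each library is not given in the sources used here.

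Apolipoproteins are the protein part of lipoprotein particles, which carry triglycerides, cholesterol and phospholipids through the blood. ApoB forms the backbone of very low density particles, ApoA-I is the main protein of high density particles, and smaller exchangeable apolipoproteins move between particles and steer lipases and receptors. In the larval zebrafish these particles are secreted by the yolk syncytial layer, which exports yolk lipid, by the liver and by the intestine. Hepatocytes also secrete most other plasma proteins, among them transferrin, protease inhibitors, the fibrinogen chains and complement. HCs, by contrast, are mechanosensory epithelial cells of the ear and of the neuromasts.

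All 9 member genes were at least 3-fold lower in GFP(+) cells than in GFP(−) cells, and 8 of the 9 at least 10-fold lower. Over the whole data set, 15.6% of genes with a ratio were at least 3-fold lower and 3.69% at least 10-fold lower. Among genes whose GFP(−) value was high enough for such a fold to be seen, the shares were 25.9% for 3-fold (GFP(−) value of at least 144) and 12.5% for 10-fold (at least 480). Ratios are given as GFP(+) over GFP(−) on the log2 scale, and their median was −5.68 over the members, with quartiles of −6.02 and −5.53, whereas the median over the 16547 genes with a ratio was 0.03. With 1 library per population, these are descriptions of a pair of libraries and no test was made. The values are read counts per gene that the authors quantile-normalized and floored at 20, and they are called normalized reads here. They are not divided by gene length, so they are compared between populations and not between genes. GFP(+) values of 48 or less are tied and were set to 48, which makes the fold of such a gene a lower bound, and a gene at 48 or less in both populations has no ratio.

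**Figure D1:**
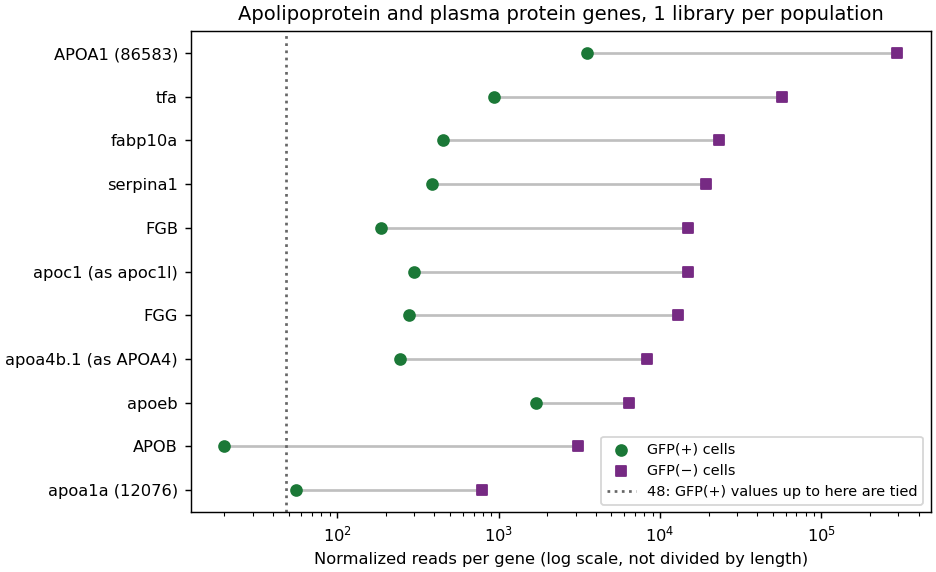
Normalized reads per gene (log axis) of the 9 member genes and of the 2 genes matched by RefSeq synonym, in GFP(+) cells (circles) and GFP(−) cells (squares), 1 library each. All GFP(+) values lie left of their GFP(−) values, the distance is shortest for apoeb (3.79-fold), and APOB lies in the tied range of GFP(+) cells.

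Among the genes of the particle scaffolds, APOB (ENSDARG00000042780, deposited as 1 of 3 copies) had 20 normalized reads in GFP(+) cells, which is the floor, and 3106.5 in GFP(−) cells. It was thus at least 64.7-fold lower in GFP(+) cells, and its log2 ratio was at most −6.02. Another ApoB gene, apobb.1 (ENSDARG00000022767), was measured well above the tied range, with 323.0 normalized reads in GFP(+) cells, against 15372.0 in GFP(−) cells, a 47.6-fold difference in the same direction. Both of these ApoB genes were therefore low in GFP(+) cells, 1 as a bound and 1 as a measured ratio.

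The name apoa1a matched a pair of genes for ApoA-I, the activator of cholesterol esterification on high density particles. The gene deposited as APOA1 (ENSDARG00000086583), which has no name in the identifier table, had 3521.5 normalized reads in GFP(+) cells, against 293774.5 in GFP(−) cells. It was 83.4-fold lower in GFP(+) cells, the largest measured fold among the members, and only 20 of the 16547 genes had a lower ratio. The gene named apoa1a (ENSDARG00000012076) had 55.5 normalized reads in GFP(+) cells, against 785.5 in GFP(−) cells, which made it 14.2-fold lower. This is a measured ratio, close to the 16.4-fold at which its GFP(+) value would have entered the tied range, and its difference from that of APOA1 was not tested. How reads shared by similar copies were treated in the counting is not given in the sources used here, and this may affect the values of such genes.

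Of the exchangeable apolipoproteins, apoeb (ENSDARG00000040295) stood apart from the other members. ApoE is the ligand through which remnant particles are taken up by receptors of the LDL receptor family, and in zebrafish apoeb is transcribed in the yolk syncytial layer and also in microglia and other macrophages. It had 1708.0 normalized reads in GFP(+) cells, against 6473.5 in GFP(−) cells, a 3.79-fold difference with a log2 ratio of −1.92. The GFP(−) value would have allowed a fold of up to 134.9, so this ratio was not limited by the tied range. A lower ratio than that of apoeb was found for 2004 genes, 12.1% of those with a ratio, against at most 2.38% for any other member. The GFP(+) library thus kept 26.4% of the GFP(−) value of apoeb.

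The genes matched by synonym had ratios nearer to those of the other members than to that of apoeb. The zebrafish apoa4b.1 (ENSDARG00000040298), a gene for the chylomicron protein ApoA-IV, had 245.5 normalized reads in GFP(+) cells, against 8351.0 in GFP(−) cells and was 34.0-fold lower. The zebrafish apoc1 (ENSDARG00000092170), whose product ApoC-I inhibits the uptake and remodelling of particles, had 301.0 normalized reads in GFP(+) cells, against 14816.0 in GFP(−) cells and was 49.2-fold lower. With both added, 11 of 11 genes were at least 3-fold lower and the median log2 ratio was −5.64.

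The intracellular and plasma proteins of hepatocytes had ratios close to each other. The liver-type fatty acid-binding protein gene fabp10a (ENSDARG00000038439), which encodes a bile acid and lipid carrier of the hepatocyte cytoplasm and is a standard liver marker in zebrafish, had 453.5 normalized reads in GFP(+) cells, against 23263.0 in GFP(−) cells. It was 51.3-fold lower in GFP(+) cells. Transferrin, the iron carrier of plasma, is encoded by tfa (ENSDARG00000016771), which had 942.0 normalized reads in GFP(+) cells, against 57204.5 in GFP(−) cells and was 60.7-fold lower. The alpha-1-antitrypsin gene serpina1 (ENSDARG00000090286), which encodes an inhibitor of neutrophil elastase, had 385.0 normalized reads in GFP(+) cells, against 19257.0 in GFP(−) cells and was 50.0-fold lower. Its neighbour in the RefSeq annotation, serpina1l (ENSDARG00000090850), with 325.0 normalized reads in GFP(+) cells, against 25830.0 in GFP(−) cells, was 79.5-fold lower.

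The fibrinogen chains, which are assembled into a single clotting protein, were lower in GFP(+) cells together. For the beta chain, FGB (ENSDARG00000008969) had 188.0 normalized reads in GFP(+) cells, against 14976.5 in GFP(−) cells, a 79.7-fold difference. For the gamma chain, FGG (ENSDARG00000037281) had 277.5 normalized reads in GFP(+) cells, against 12841.0 in GFP(−) cells, a 46.3-fold difference. The alpha chain gene fga (ENSDARG00000020741), which is not a member, had 361.0 normalized reads in GFP(+) cells, against 20130.0 in GFP(−) cells and was 55.8-fold lower, between the other two. Without replicates it cannot be said whether the 3 chains differed from each other in their ratios.

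Of the 9 members, 6 were grouped after their values had been seen, namely APOA1, fabp10a, tfa, serpina1, FGB and FGG. The group holds the members, apoeb apart, with a GFP(+) value above 100. This choice left out apoeb and apoa1a, the members with the smallest folds, so a narrow range of ratios follows in part from it. Their GFP(+) values were between 1.2% and 2.16% of their GFP(−) values, which is 46.3-fold to 83.4-fold lower. APOB is bounded at 1.55% or less, and apoa1a, at 7.07%, and apoeb, at 26.4%, lay outside this range. A GFP(+) value above 100 was thus a condition of this group and not a result. Reads of these 6 genes were present in the GFP(+) library as well. Summed over the 9 members, the GFP(+) library held 7551.0 normalized reads, 0.0397% of its total, and the GFP(−) library 431682.0, 2.27% of its total, a 57.2-fold difference. Most of the GFP(−) sum was that of APOA1, and without it the sum was 34.2-fold lower. In bulk libraries such as these, fewer cells of a type and less RNA per cell cannot be told apart.

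**Figure D2:**
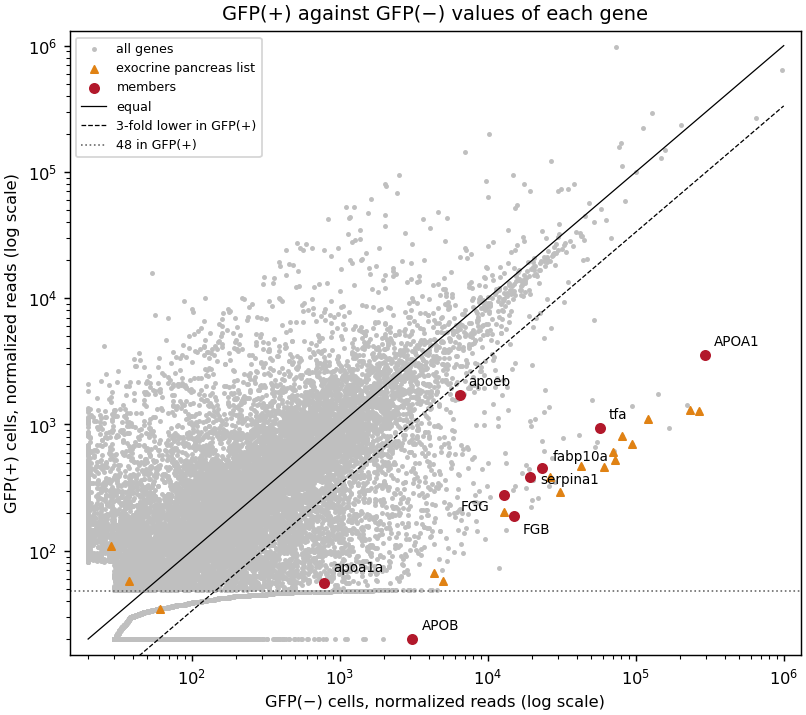
GFP(+) value against GFP(−) value of each of the 17668 genes (both axes logarithmic), with the 9 members as circles and the genes of an exocrine pancreas list as triangles. Apart from apoeb, apoa1a and APOB, the members lie between 46.3-fold and 83.4-fold below the line of equal values, and the rising curve and the row at 20 below the dotted line are the tied GFP(+) values.

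Several of these genes are neighbours. In the RefSeq annotation of GRCz12tu, a later assembly than the Zv9 genome used for the counts, apoa4b.1, apoa4b.3, apoa4b.2, apoeb, apoc1, apoc4, apoa2 and apoc2 follow each other within a run of 11 annotated genes. The genes of this run were looked at after their values had been seen. The run held a wide range of ratios, several of which were only bounds. Next to apoeb on one side, apoa4b.2 (ENSDARG00000020866) had 48 normalized reads in GFP(+) cells, against 1510.5 in GFP(−) cells and was at least 31.5-fold lower. On the other side was apoc1, at 49.2-fold lower. The gene of ApoA-II, the second major protein of high density particles in mammals, apoa2 (ENSDARG00000015866), had 1757.5 normalized reads in GFP(+) cells, against 142539.5 in GFP(−) cells and was 81.1-fold lower. The lipoprotein lipase cofactor gene apoc2 (ENSDARG00000092155) had 48 normalized reads in GFP(+) cells, against 1080.5 in GFP(−) cells and was at least 22.5-fold lower. For apoa4b.3 the values were 42.5 in GFP(+) cells, against 168.0 in GFP(−) cells, a bound of 3.50-fold, and for apoc4 they were 29.0 in GFP(+) cells, against 38.0 in GFP(−) cells, which gives no ratio. Only apoa4b.1, apoeb, apoc1 and apoa2 had GFP(+) values above 48 in this run, and among these apoeb had the smallest fold.

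**Figure D3:**
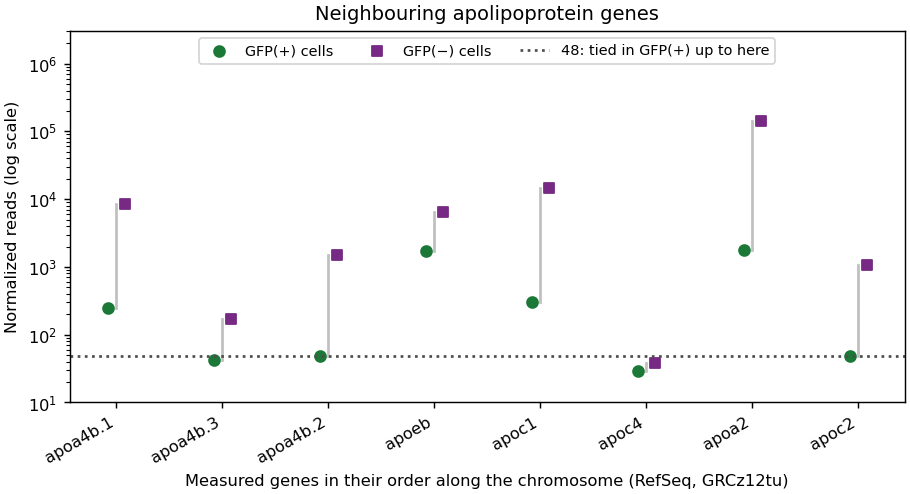
Normalized reads (log axis) of the 8 measured genes of the apolipoprotein run, in their order along the chromosome in RefSeq, in GFP(+) cells (circles) and GFP(−) cells (squares). The distance between the populations is shorter for apoeb (3.79-fold) than for its neighbours apoa4b.2 (at least 31.5-fold) and apoc1 (49.2-fold).

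The list of other apolipoproteins held 23 symbols, of which 14 matched 15 genes outside the members. Of the 14 genes with a ratio, 10 were at least 3-fold lower and 1 was higher by the same limit, which 18.1% of all genes with a ratio passed in that direction. The median log2 ratio of the list was −4.73. The gene that was higher was 1 of the 2 APOD genes in the data, deposited as the first and the third of 3 copies, which encode a lipocalin unrelated in fold to the classical apolipoproteins. It (ENSDARG00000057437) had 13195.0 normalized reads in GFP(+) cells, against 355.5 in GFP(−) cells, a 37.1-fold difference, whereas the other (ENSDARG00000060350), named here after its values had been seen, had 146.5 in GFP(+) cells, against 13385.5 in GFP(−) cells and was 91.4-fold lower. The list also held APOO and apool, which are named after apolipoproteins but encode mitochondrial proteins, and apol1, all named after their values had been seen, and these were within 3-fold between the populations.

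Genes for the assembly and clearance of lipoproteins were more mixed. Of 28 symbols, 20 matched 22 genes, of which 11 were at least 3-fold lower, 3 at least 3-fold higher and 6 within 3-fold, and 2 had no ratio. The median log2 ratio was −1.82. Over all genes with a ratio, 15.6% were at least 3-fold lower and 18.1% at least 3-fold higher. Lipoprotein lipase, which releases fatty acids from triglycerides, is encoded by LPL (ENSDARG00000087697), with 496.5 normalized reads in GFP(+) cells, against 13232.0 in GFP(−) cells, a 26.7-fold lower value. The cholesterol exporter gene ABCA1 (ENSDARG00000074635), which loads ApoA-I, was 7.48-fold lower and the receptor gene LRP1 (ENSDARG00000029146) 10.1-fold lower. Higher in GFP(+) cells were the endothelial lipase gene LIPG (ENSDARG00000031044), 4.96-fold, and the sorting receptor gene SORT1 (ENSDARG00000056252), 5.60-fold. Its copy ENSDARG00000029402, named after its values had been seen, was 5.94-fold lower. The third gene that was higher, ENSDARG00000026759, is ldlrb in the identifier table but was deposited under the symbol of an adaptor subunit gene, AP1M2, so its place in this list is uncertain. It had 8039.0 normalized reads in GFP(+) cells, against 609.5 in GFP(−) cells. The microsomal triglyceride transfer protein gene MTTP (ENSDARG00000008637), also named after its values had been seen, lipidates ApoB during secretion and had 319.5 normalized reads in GFP(+) cells, against 274.0 in GFP(−) cells, and it did not share the low ratio of APOB and apobb.1.

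Of 12 symbols of other fatty acid-binding proteins, 7 matched 7 genes. Of the 6 with a ratio, 4 were at least 3-fold lower, against 15.6% of all genes with a ratio, and none was higher. Their median log2 ratio was −2.05. The brain-type gene FABP7 (ENSDARG00000007697) was 20.2-fold lower, with 192.5 normalized reads in GFP(+) cells, against 3894.5 in GFP(−) cells. The intestinal genes FABP2 (ENSDARG00000006427) and FABP6 (ENSDARG00000044566), both tied in GFP(+) cells, were at least 16.6-fold and at least 5.00-fold lower. The GFP(−) values of these intestinal genes, 796.0 and 240.0, left less room for a fold than that of fabp10a.

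Genes of the coagulation, complement and other plasma protein lists were lower in GFP(+) cells in nearly all cases, though not every listed gene need be a product of the hepatocyte. For comparison, 15.6% of all genes with a ratio were at least 3-fold lower. In the coagulation and fibrinolysis list (19 of 24 symbols matched, 21 genes), 19 of the 20 genes with a ratio were at least 3-fold lower, and the median log2 ratio was −4.44. The plasminogen gene PLG (ENSDARG00000023111) had 123.5 normalized reads in GFP(+) cells, against 9525.0 in GFP(−) cells and was 77.1-fold lower, and the antithrombin gene SERPINC1 (ENSDARG00000042684) was 37.3-fold lower. The single gene with a ratio in this list that was not lower was hgfa (ENSDARG00000045544), named after its values had been seen, with 58.5 normalized reads in GFP(+) cells, against 48 in GFP(−) cells.

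In the complement list (20 of 25 symbols matched, 20 genes), 19 of 20 genes were at least 3-fold lower, with a median of −4.27. The central component gene c3a.1 (ENSDARG00000012694) had 442.0 normalized reads in GFP(+) cells, against 19168.0 in GFP(−) cells and was 43.4-fold lower. Its relative c3a.3 (ENSDARG00000052207) was 48.3-fold lower, and c9 (ENSDARG00000016319), a pore-forming component, 41.0-fold. The gene short of 3-fold, c3a.4 (ENSDARG00000093198), also named after its values had been seen, was tied in GFP(+) cells at 20, with only 75.5 normalized reads in GFP(−) cells.

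Of the other plasma proteins (17 of 35 symbols matched, 20 genes), 17 genes were at least 3-fold lower and none at least 3-fold higher, with a median of −4.94. The fetuin gene fetub (ENSDARG00000053973), which encodes a protease inhibitor, had 1394.5 normalized reads in GFP(+) cells, against 94617.5 in GFP(−) cells and was 67.9-fold lower. The vitamin D-binding protein gene GC (ENSDARG00000089310) was 37.8-fold lower. The only gene above 1 in this list, GCA (ENSDARG00000020187), singled out for its values, entered through the final a alone and encodes a different, calcium-binding protein. It had 1646.0 normalized reads in GFP(+) cells, against 737.5 in GFP(−) cells. Over these 6 lists together, 80 of 100 genes with a ratio were at least 3-fold lower and 4 at least 3-fold higher. The shares of all genes with a ratio were 15.6% and 18.1%. The median log2 ratio of the lists was −4.01, against −5.68 for the members. These medians are not on equal terms. In the lists, 29 of 105 genes had tied GFP(+) values, against 1 of the 9 members, so more of the list folds are bounds. The lists also hold apoa4b.1 and apoc1, and the difference between the medians was not tested. None of the 7 vitellogenin symbols, which stand for the maternal yolk precursors, matched a gene.

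**Figure D4:**
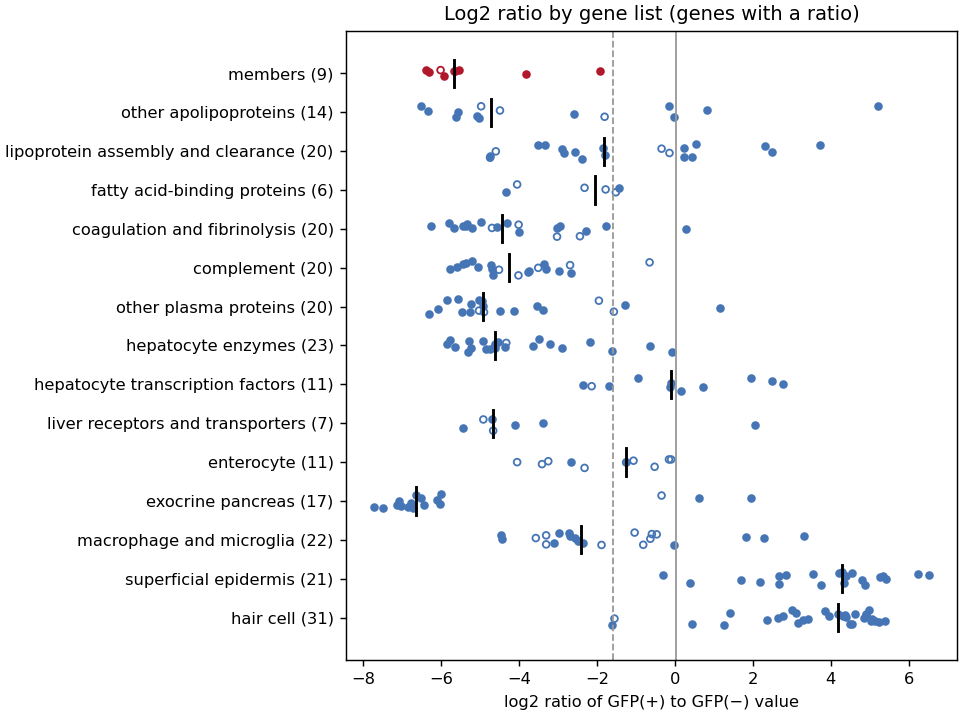
Log2 ratio of GFP(+) to GFP(−) value of each gene with a ratio (number in parentheses), by list, with open symbols for genes tied in GFP(+) cells, a black bar for the median, a grey line for the median of all genes (0.03) and a dashed line for 3-fold lower. The members have a median of −5.68, and the exocrine pancreas list lies further to the left, with a median of −6.64, whereas superficial epidermis and hair cell lists lie to the right.

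Genes that mark the hepatocyte itself were examined beside the members. Of 26 hepatocyte enzyme symbols, 22 matched 23 genes, with a median of −4.61. Of these genes, 21 were at least 3-fold lower, against 15.6% of all genes with a ratio, and none was higher. Named among the lower ones are BHMT (ENSDARG00000013430), an enzyme of methionine synthesis that was 50.2-fold lower, PCK1 (ENSDARG00000013522), the entry enzyme of gluconeogenesis that was 39.3-fold lower, and AGXT (ENSDARG00000018478), a glyoxylate-detoxifying enzyme that was 58.0-fold lower. In the list of liver receptors and transporters, 7 of 11 symbols matched 7 genes, and 6 were at least 3-fold lower, among them abcc2 (ENSDARG00000014031) at 43.8-fold, slc27a2a (ENSDARG00000036237) at 17.1-fold and asgr1a (ENSDARG00000095963) at 25.9-fold. The exception, abcb11a (ENSDARG00000011573), had 87.0 normalized reads in GFP(+) cells, against 21.0 in GFP(−) cells, and the median of the list was −4.67. The value of 48.5 for abcc2 in GFP(+) cells is shared by 25 genes without a deposited symbol whose GFP(−) values ran from 1706.0 to 4541.0, so the tied curve seems to reach slightly beyond 48 and its fold may be a lower bound as well.

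Transcription factors used by hepatocytes had a median ratio close to that of all genes, and several had low values in both populations. Of 19 symbols, 16 matched 16 genes, of which 5 had no ratio. Among the other 11, 3 were at least 3-fold lower and 3 at least 3-fold higher, with a median of −0.11. Over the whole data set, these limits were passed by 15.6% and 18.1% of genes with a ratio. HNF4A (ENSDARG00000021494), a nuclear receptor that activates apolipoprotein genes in mammals, was tied at 43.5 normalized reads in GFP(+) cells and had 211.5 in GFP(−) cells, a bound of 4.41-fold. PROX1 (ENSDARG00000055158) was 5.14-fold lower and foxa3 (ENSDARG00000012788) 3.24-fold lower. NR1I2 (ENSDARG00000029766), a receptor for foreign compounds, had 2810.0 normalized reads in GFP(+) cells, against 410.0 in GFP(−) cells, and was 6.85-fold higher. Of 3 PPARA genes, 2 were also higher. ENSDARG00000054323 was 3.83-fold higher, with only 39.0 normalized reads in GFP(−) cells. ENSDARG00000091024, at the floor in GFP(−) cells, was at least 5.63-fold higher. The remaining copy, pparaa (ENSDARG00000031777), named after its values had been seen, had 75.5 normalized reads in GFP(+) cells, against 81.5 in GFP(−) cells. Factors such as these are used by several epithelia, and their source among the sorted cells was not tested.

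Markers of HCs were mostly higher in GFP(+) cells, and so were markers of the superficial epidermis, although these cells were labelled as hair cells. In the hair cell list, 35 of 36 symbols matched 31 genes with a median of 4.19. In GFP(+) cells, 26 of them were at least 3-fold higher and 1 was at least 3-fold lower, against 18.1% and 15.6% of all genes with a ratio. Among the higher ones were pvalb8 (ENSDARG00000037790), pvalb9 (ENSDARG00000071601) and OTOF (ENSDARG00000020581), and the lower one was cabp2a (ENSDARG00000052016). The superficial epidermis list (21 of 25 symbols, 21 genes), led by krt4, cyt1 and cyt1l, had a median of 4.29 and 19 genes past the limit of 3-fold in the same direction. Its genes summed to 9.65% of all normalized reads in GFP(+) cells, against 0.780% in GFP(−) cells. Of this GFP(+) sum of 1835961.0 normalized reads, krt4 alone held 978726.0, the highest value of the library. The hair cell list summed to 0.569% in GFP(+) cells, against 0.0299% in GFP(−) cells. Both libraries were given the same set of values, so a ratio depends on the rank of a gene in each library. The part of this normalization in the ratios of the members was not tested.

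The exocrine pancreas, the other large secretory gland of the larva, had genes with ratios further from 1 than those of the members. Of 21 symbols, 15 matched 17 genes, of which 14 were at least 3-fold lower and 1 at least 3-fold higher, with a median of −6.64. The higher one, amy2al1 (ENSDARG00000030357), had 110.0 normalized reads in GFP(+) cells, against only 28.5 in GFP(−) cells. The trypsin genes prss59.2 (ENSDARG00000073742), prss1 (ENSDARG00000042993) and prss59.1 (ENSDARG00000079274) were 211.3-fold, 181.1-fold and 109.99-fold lower. Summed over the list, the GFP(+) library held 8442.5 normalized reads and the GFP(−) library 1126644.5, a 133.4-fold difference, against 57.2-fold for the sum of the members. The difference between these folds was not tested. The enterocyte list (12 of 19 symbols, 13 genes) held 2 fatty acid-binding protein genes counted above, and its median was −1.25. Of its 11 genes with a ratio, 5 were at least 3-fold lower, against 15.6% of all genes with a ratio, and none was higher. The GFP(+) values of 11 of its 13 genes were tied, among them that of the brush border gene VIL1 (ENSDARG00000040466), at 47.0 in GFP(+) cells, against 511.5 in GFP(−) cells.

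The macrophage and microglia list was set beside apoeb because these cells transcribe it. Of 23 symbols, 18 matched 26 genes. Of the 22 with a ratio, 13 were at least 3-fold lower and 3 at least 3-fold higher, and the median was −2.42. The shares over all genes with a ratio were 15.6% lower and 18.1% higher by the same limit. The leukocyte genes LCP1 (ENSDARG00000023188) and CORO1A (ENSDARG00000054610) were 21.8-fold and 22-fold lower, and ctss2.1 (ENSDARG00000074656) was 6.47-fold lower. The genes that were higher were ctss2.2 (ENSDARG00000013771), 9.93-fold, 1 MPEG1 gene (ENSDARG00000043093), with 1692.5 normalized reads in GFP(+) cells, against 476.0 in GFP(−) cells, and 1 of 8 MFAP4 genes (ENSDARG00000038683), with 133.0 in GFP(+) cells, against 27.5 in GFP(−) cells. None of the other MFAP4 genes was higher, and ENSDARG00000090783, for example, was 7.84-fold lower. The other MPEG1 gene in the data (ENSDARG00000055290), named like this MFAP4 gene after its values had been seen, had 106.0 normalized reads in GFP(+) cells, against 548.5 in GFP(−) cells. Summed over the list, the GFP(+) library held 6647.0 normalized reads and the GFP(−) library 12543.5, so the sum was 1.89-fold lower. Much of the GFP(+) sum came from ctss2.2 and 1 MPEG1 gene. Without ctss2.2 the sum was 3.72-fold lower, and without both it was 7.38-fold lower, at 1589.0 in GFP(+) cells, against 11728.5 in GFP(−) cells. Both genes were left out after their values had been seen. As both were higher in GFP(+) cells, leaving them out could only make the sum lower in GFP(+) cells relative to GFP(−) cells. The GFP(+) values of 13 of the 26 genes were tied, that of the pan-leukocyte gene ptprc, chosen after its values had been seen, among them. The part of macrophages, and of the epidermis, in the ratio of apoeb was not tested.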

How the data were processed

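The authors used TopHat for alignment to Zv9 and HTSeq for read counts per Ensembl gene (versions not given in the sources used here). By the study's methods they then applied quantile normalization and a floor of 20, so the deposited values are a normalized signal in units of reads, and the title of the table names a minimum of 40 reads. Both libraries sum to 19035170.5 by construction, so the depth behind each value is unknown. Names came from deposited symbols, which 3758 genes have, and from an identifier table that matched 14593 of 17668 genes. The ratio of GFP(+) to GFP(−) expression was computed without a pseudocount, with GFP(+) values of 48 or less set to 48, and 1121 genes at 48 or less in both populations had no ratio. Where GFP(−) cells were at the floor, the fold is a lower bound. Other GFP(−) values of 48 or less were used as deposited, so a fold higher in GFP(+) cells can rest on a low GFP(−) value.

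The members, the 15 gene lists and the limit of 3-fold were chosen with earlier results of these data known. List symbols were matched by the same rule as the members, and genes already counted as members were left out of the lists. Named were all members and, of each list, up to 3 genes at least 3-fold lower with the highest GFP(−) values and up to 3 at least 3-fold higher with the highest GFP(+) values. Other genes of the lists, and the neighbours of apoeb, were named after their values had been seen. Alternatives were other treatments of tied values, pseudocounts of 20 and 100, filters on low values, centring, equal symbols and folds of 2 and 10. The computation was tested on simulated data. No sequences are shown, since no sequence table was used here. Python 3.11.15, numpy 2.4.6, pandas 2.3.3 and matplotlib 3.10.9 were used.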

Additional observations from a re-analysis of the deposited data

How the results depend on the processing

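No paired analysis was possible because each population has 1 library, and no library could be left out. Under each of 12 other settings, 2 of them added after seeing the data, the number of members at least 3-fold lower in GFP(+) cells stayed within 1.5 times of 9, and every member with a ratio was counted except apoeb at the limit of 10-fold. The median log2 ratio of the members, −5.68, was −5.57 with a pseudocount of 20, −5.32 with a pseudocount of 100, −5.66 without tied genes, −5.71 after centring and −5.66 with equal symbols only. It was −5.64 with apoa4b.1 and apoc1 added and −5.80 without apoeb, both added after seeing the data. The number of genes of the 6 plasma and lipoprotein lists at least 3-fold lower, 80 of 100, was between 59 (limit of 10-fold) and 84. The number of genes counted over was not always 100. It ran from 76 without tied genes to 105 with tied values as deposited or set to 20. Depth is unknown, and a GFP(−) value below 480 cannot show a 10-fold lower value.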
